A study of Mus musculus with 32 samples.

Results

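The genes described here are 8 genes of the podocyte, the cell that covers the outside of the glomerular capillary: Nphs1, Podxl, Wt1, Synpo, Cd2ap, Actn4, Ptpro and Cdkn1c. They were taken by symbol from a table of raw RNA-Seq counts for 32544 genes, and all 8 were found and passed the filter on low counts in every comparison. The table holds 1 kidney cortex library from each of 32 mice aged 25 weeks, 4 mice for each combination of sex, genotype and diet. All mice carried Col4a3tm1Dec on the C57BL/6J background. Alport mice were Col4a3-/- and lacked the collagen IV chain that the gene encodes, and control mice were Col4a3+/-, so that the controls also carried 1 null allele and no wild-type mice enter the comparisons. NR (nicotinamide riboside, a precursor of NAD+) was given at 0.5% w/w in a purified diet from 10 weeks of age, and vehicle was that purified diet without NR. The comparisons ask how far the podocyte genes differed between Alport and control cortex, whether the sexes differed, and whether NR treatment changed them.

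Podocytes send out foot processes that interlock around the capillary, and the slit diaphragm is the cell junction that bridges the gaps between them and acts as part of the filter for plasma. Nephrin, the protein of Nphs1, forms the bridge itself, and adaptors such as CD2AP (Cd2ap) tie it to the actin skeleton of the foot process, which synaptopodin (Synpo) and α-actinin-4 (Actn4) organise. Podocalyxin (Podxl) is a charged sialomucin of the cell surface, Ptpro encodes a receptor tyrosine phosphatase of the foot process, Wt1 a transcription factor that maintains podocyte identity, and Cdkn1c a cyclin-dependent kinase inhibitor of the mature, non-dividing podocyte. Cd2ap and Actn4 are also expressed by many other kidney cells, and Podxl by endothelium. Injury that detaches podocytes or flattens their foot processes leads to albumin in the urine, as in Alport syndrome.

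Total counts were 16621944–27778797 per library, and a gene of the 8 had 149–13416 counts in a mouse. Counts were scaled by edgeR's TMM factors and are given as CPM, the counts of a gene scaled to a common library size after the total of each library was multiplied by its factor. In bulk RNA, fewer cells of a type and less RNA per cell cannot be told apart. Col4a3, the targeted gene, was at 151–201 CPM in vehicle-treated control males and 54.6–83.2 CPM in vehicle-treated Alport males, and at 139.5–164 and 57.7–79.2 CPM in the females. Reads from outside the altered part of the gene can still be counted in Col4a3-/- mice. The libraries labelled as NR-treated control males held 59.3, 94.1, 75.2 and 159.6 CPM of Col4a3, so that replicates 1 and 3 lay inside the range of the vehicle-treated Alport males, where NR-treated Alport males held 56.04–67.6 CPM. Summed fibroblast markers of these 2 libraries were at 255 and 246 CPM, against 152–171 CPM in vehicle-treated control males and 1139–1782 CPM in vehicle-treated Alport males. Their summed proximal tubule markers were at 19830 and 22640 CPM and lay between the same groups, which held 29220–32350 and 10470–17670 CPM. In control females Col4a3 was also lower on NR than on vehicle, at 105–124 CPM (log2 −0.38 ± 0.077, adjusted p = 0.0154). For the 8 genes, calls that rest on these 2 libraries are therefore also given without them, a choice made after their values were seen. Calls of marker lists and shares of all genes are given only with them. All 32 mice had counts of each of the 8 genes and of the 6 podocyte transcription factors of the marker list, against summed proximal tubule markers of 6061–33470 CPM over all mice.

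In GENCODE annotation of mm10, the build named in the submitters' processing notes, Nphs1 lies at chr7:30458315-30487223 on the plus strand, Podxl at chr6:31519488-31563981 on the minus strand, Wt1 at chr2:105126529-105173616 on the plus strand and Ptpro at chr6:137252319-137463233 on the plus strand. Cd2ap lies at chr17:42792951-42876665, Actn4 at chr7:28893248-28962340 and Cdkn1c at chr7:143458339-143461050, all on the minus strand. Counts cover the whole gene, not single exons. The antisense genes Nphs1os and Gm44732 overlap 597 exonic bases of Nphs1 and 625 exonic bases, or 30.7%, of Cdkn1c, and Capn12 overlaps 316 exonic bases of Actn4 on the other strand. The strand setting of the counting is not given in the sources used here, so reads of these overlaps cannot be told apart.

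Promoter sequence (RefSeq, GRCm38.p6) was at hand for 4 of the 8 genes. The windows of a gene that differed strongly between Alport and control cortex, Ptpro, and of one that did not pass the test, Actn4, are shown because their base composition differed. Each runs 5′ to 3′ over the 250 bases before the RefSeq start of the gene, with the CpG dinucleotides in capitals. The Ptpro window is chr6:137252049-137252298 on the plus strand and the Actn4 window chr7:28962333-28962582 on the minus strand.
Ptpro: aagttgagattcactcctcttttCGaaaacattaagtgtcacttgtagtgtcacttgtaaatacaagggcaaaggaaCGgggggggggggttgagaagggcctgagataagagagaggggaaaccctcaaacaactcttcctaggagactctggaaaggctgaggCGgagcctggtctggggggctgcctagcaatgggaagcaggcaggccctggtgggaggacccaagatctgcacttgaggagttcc
Actn4: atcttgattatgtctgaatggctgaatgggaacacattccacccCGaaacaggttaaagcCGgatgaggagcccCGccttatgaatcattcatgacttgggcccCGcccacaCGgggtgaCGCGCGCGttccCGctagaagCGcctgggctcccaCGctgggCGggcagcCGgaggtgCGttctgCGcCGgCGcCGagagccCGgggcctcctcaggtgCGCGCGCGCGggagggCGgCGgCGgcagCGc
The Ptpro window held 3 CpG and that of Nphs1 5, against 29 in Actn4 and 31 in Cd2ap, where the median of all promoters was 6. In the GENCODE annotation, however, 250 bases of the Nphs1 window (chr7:30459808-30460057, inside the gene) and 241 of the Cd2ap window are exonic, against 8 of Actn4 and 0 of Ptpro, so that the windows of Nphs1 and Cd2ap lie wholly or mostly within exons there. Fewer CpG than these were found in 29.0%, 44.4%, 93.2% and 94.8% of promoters. The GC box GGGCGG, searched on both strands, occurred 3 times in the Actn4 window and in none of the other windows, and 32.7% of 32851 promoters of this length held it. CAGCTG occurred once in the Cd2ap window, and 13% of promoters held it. The TATA box TATAAA, the LMX1B type motif TAATTA, the forkhead motif GTAAACA and the EGR and WT1 type motif GCGGGGGCG were in none of the 4 windows, and 12.4%, 4.84%, 3.17% and 2.57% of promoters held them. These are matches of letters in 4 windows and not binding sites.

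Exon length was taken as the union over all annotated transcripts, 15864 bases for Cd2ap and 2039–9533 bases for the others. Ranks per kb depend on this choice, and other lengths were not tried. Per kb of annotated exon, the only scale on which levels of different genes are ranked here, Actn4 was the most abundant of the 8 in vehicle-treated control males (59.8 ± 4.66 CPM per kb, SD, n = 4), followed by Podxl (37.5 ± 3.77) and Cdkn1c (17.0 ± 1.68). Cd2ap (7.47 ± 0.198), Synpo (5.73 ± 0.558) and Nphs1 (4.92 ± 0.925) followed, and the ranges of Synpo and Nphs1 overlapped. Ptpro (2.56 ± 0.224) and Wt1 (1.46 ± 0.199) were lowest, and Wt1 had the lowest mean per kb in all 8 groups. In vehicle-treated Alport males Podxl (69.7 ± 14.0) stood beside Actn4 (63.8 ± 1.31) with overlapping ranges, and the mean of Cd2ap (9.57 ± 0.951) lay below those of Synpo (14.6 ± 2.52) and Nphs1 (10.98 ± 1.63).

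**Figure D1:**
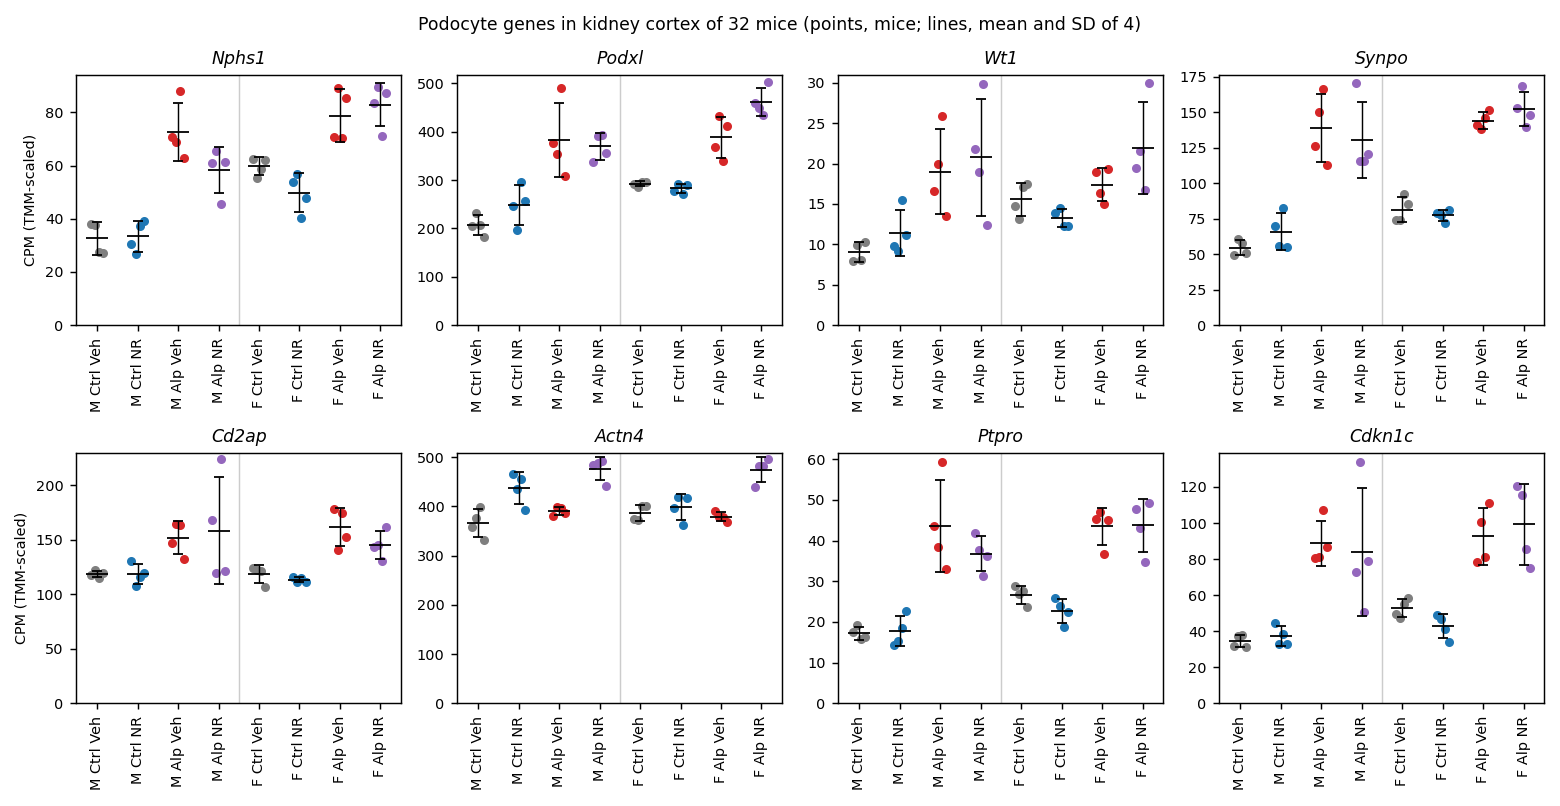
TMM-scaled CPM (y axis, from 0) of the 8 podocyte genes in each of 32 mice, with the mean and SD of the 4 mice of each group; M and F are males and females, Ctrl and Alp control and Alport mice, Veh and NR the diets. Vehicle-treated Alport males lie above all vehicle-treated control males in every gene but Actn4, and the grey vehicle-treated control females lie above the grey males in every gene but Cd2ap and Actn4.

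In males on vehicle, 7 of the 8 genes were higher in Alport than in control cortex, and in each of these 7 every Alport mouse lay above every control mouse. Of all 15286 genes tested in this comparison, 26.8% were called higher, and in 22.1% every Alport mouse lay above every control mouse. The median log2 fold change of the 8 was 1.20, against −0.0013 for all genes tested.

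Nephrin mRNA was at 38.2, 37.6, 27.5 and 27.1 CPM in the 4 vehicle-treated control males and at 70.8, 68.9, 88.02 and 62.8 CPM in the 4 vehicle-treated Alport males. The groups did not overlap, and Nphs1 was 2.37-fold higher in Alport mice (log2 fold change 1.24 ± 0.14, SE, adjusted p = 2.06e-05, edgeR). Ptpro, the phosphatase of the foot process, went from 17.5, 19.2, 15.8 and 16.3 CPM in control to 43.6, 38.5, 59.3 and 33.05 CPM in Alport mice (2.69-fold, log2 1.43 ± 0.16, adjusted p = 1.87e-05). Its highest Alport mouse, replicate 3, was also the highest for Nphs1, Podxl, Wt1, Synpo and Cdkn1c.

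Cdkn1c, the cell cycle inhibitor, was at 32.05, 37.4, 37.8 and 31.4 CPM in control and 80.4, 81.02, 107 and 86.5 CPM in Alport males. It rose 2.72-fold (log2 1.44 ± 0.11, adjusted p = 1.07e-06), the largest estimate of the 8 and within an SE of those of Synpo and Ptpro. The transcription factor Wt1 was at 7.92, 9.92, 8.04 and 10.3 CPM in control and 16.6, 19.96, 25.8 and 13.5 CPM in Alport males, a rise of 2.23-fold (log2 1.16 ± 0.19, adjusted p = 2.99e-04). The Alport mice of Wt1 were widely spread, and replicate 4 lay nearest to the controls.

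Among the genes of the actin skeleton, Synpo was at 49.5, 60.5, 57.6 and 50.8 CPM in control and 126, 150, 167 and 113 CPM in Alport males (2.70-fold, log2 1.43 ± 0.12, adjusted p = 2.46e-06). The adaptor gene Cd2ap was at 118, 122, 115 and 119 CPM in control and 147, 164, 164 and 133 CPM in Alport males. Its rise was 1.36-fold (log2 0.44 ± 0.082, adjusted p = 7.53e-04), the smallest of those called. Actn4 was at 358, 376, 399 and 332 CPM in control and 381, 398, 396 and 387 CPM in Alport males, with overlapping groups, and did not pass the test (log2 0.18 ± 0.081, adjusted p = 0.0832). DESeq2 and the filter on at least 10 counts in every mouse called Actn4 higher too, which made 8 of 8. At the cell surface, Podxl was at 204, 232, 207 and 181 CPM in control and 378, 353, 489.6 and 309 CPM in Alport males (1.97-fold, log2 0.98 ± 0.13, adjusted p = 9.38e-05).

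In females on vehicle, 6 of the 8 genes were higher in Alport mice and did not overlap with the controls, where 24% of 15709 genes tested were called higher and 20.7% lay wholly above the controls. The median log2 fold change of the 8 was 0.46, against −0.000835 for all genes tested. Synpo was at 74.2, 73.97, 92.5 and 85.04 CPM in control and 141, 138, 146 and 152 CPM in Alport females (1.82-fold, log2 0.86 ± 0.087, adjusted p = 5.50e-05). Cdkn1c was at 49.7, 47.4, 55.1 and 58.6 CPM in control and 78.3, 100.4, 81.0 and 111 CPM in Alport females (1.81-fold, log2 0.85 ± 0.12, adjusted p = 3.49e-04). These had the largest estimates, followed by Ptpro.

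Ptpro was at 28.8, 26.8, 27.6 and 23.6 CPM in control and 45.2, 47.01, 36.8 and 45.2 CPM in Alport females (log2 0.74 ± 0.092, adjusted p = 1.66e-04). Nphs1 was at 62.5, 55.2, 58.8 and 62.1 CPM in control and 70.6, 89.2, 70.2 and 85.4 CPM in Alport females, a rise of 1.36-fold (log2 0.44 ± 0.093, adjusted p = 0.00307). Nephrin mRNA of Alport females overlapped with that of Alport males, whereas all control females lay above all control males. Podxl (285–297 against 339.6–432 CPM, log2 0.45 ± 0.089, adjusted p = 0.00212) and Cd2ap (107–124 against 141–178 CPM, log2 0.48 ± 0.087, adjusted p = 0.00127) also rose. Wt1 did not pass the test and overlapped between the groups, with 14.7, 13.1, 17.1 and 17.4 CPM in control and 18.9, 16.4, 14.9 and 19.3 CPM in Alport females (log2 0.20 ± 0.12, adjusted p = 0.217). Actn4 was at 371–402 and 368–389.7 CPM, with a log2 fold change of 0.0064 ± 0.069 (adjusted p = 0.950). This flat level rests on the TMM factors, which were higher in Alport than in control females.

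The sexes were then compared within each genotype on vehicle. Control females had more RNA of 6 of the 8 genes than control males, with no overlap between the groups, where 15.9% of 14990 genes tested were called higher in females and 14.2% lay wholly above the males. The difference was largest for Nphs1 (log2 0.90 ± 0.12, adjusted p = 1.83e-04) and Wt1 (0.81 ± 0.13, adjusted p = 7.55e-04), followed by Ptpro (0.66 ± 0.091), Cdkn1c (0.63 ± 0.091), Synpo (0.60 ± 0.094) and Podxl (0.53 ± 0.076), with adjusted p-values of 2.80e-04 to 6.08e-04 for these 4. Cd2ap (log2 0.029 ± 0.065, adjusted p = 0.769) and Actn4 (0.11 ± 0.071, adjusted p = 0.280) did not pass. In Alport mice none of the 8 was called between the sexes by edgeR, DESeq2 or limma-voom, none had an unadjusted p under 0.05 and all 8 overlapped, with log2 differences of −0.14 to 0.11 where 3.84% of 15791 genes were called in either direction.

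**Figure D2:**
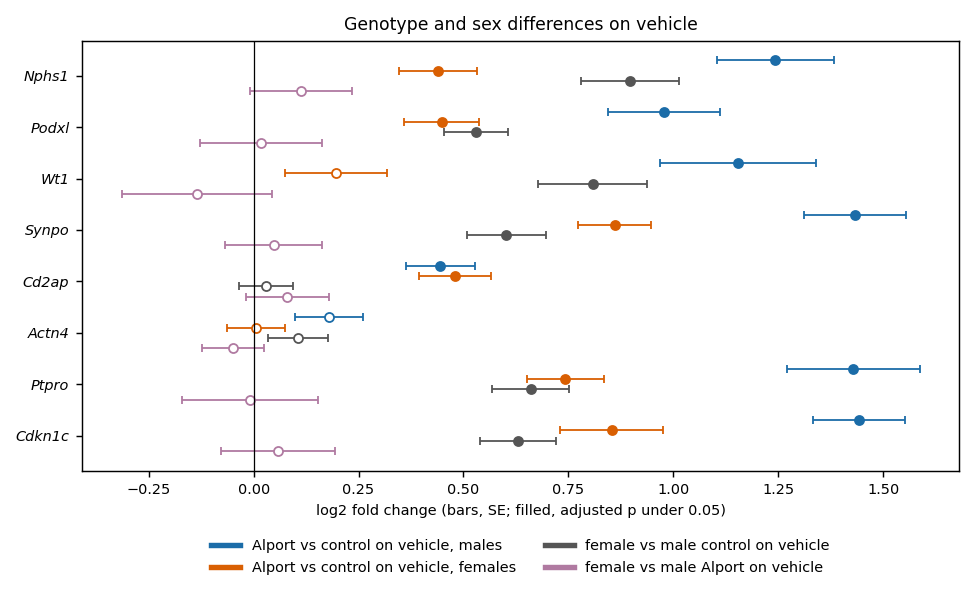
Log2 fold changes (x axis) of the 8 podocyte genes with their SE for Alport against control mice of each sex and for females against males of each genotype, all on vehicle; filled points have an adjusted p under 0.05. Estimates for males (blue) exceed those for females (orange) in every gene but Cd2ap, and the sex difference is filled in controls (grey) for 6 genes and in Alport mice (pink) for 0.

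Whether the genotype difference itself depended on sex was tested in the 16 vehicle-treated mice. The interaction passed the threshold for Nphs1 (log2 −0.83 ± 0.18, adjusted p = 0.0488), for which the Alport difference was smaller in females, and 0.365% of 16152 genes tested were called in this direction. It was below the 2-fold limit that the study set beside the adjusted p. For Wt1 the estimate was −0.99 ± 0.24 (adjusted p = 0.0763), and for Podxl, Synpo, Ptpro and Cdkn1c it lay between −0.72 and −0.56 with adjusted p-values of 0.104 to 0.173. Unadjusted p-values were under 0.05 for 7 of the 8 genes, the exception being Cd2ap (0.0020 ± 0.12), and for 12% of all genes tested. The Nphs1 call was lost with limma-voom, RLE size factors and 1 fit of all 32 mice (adjusted p = 0.0590, 0.0699 and 0.331), and on leaving out any of the 16 mice but female Alport replicate 2, after which adjusted p-values were 0.0506–0.110.

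Most other genes of the slit diaphragm were called in the same direction. Of 15 measured slit diaphragm and adaptor genes, 13 were tested in males, of which 11 were higher in Alport mice and 1 lower, with a median log2 fold change of 0.84. In females 10 of 15 were higher and 1 lower (median 0.58). Over all genes tested, 26.8% were called higher and 24.2% lower in males, and 24% higher and 21.8% lower in females, the background for all lists in these comparisons. Kirrel, a nephrin-like partner across the slit, rose by log2 2.28 ± 0.23 in males and 1.33 ± 0.13 in females and the cadherin-family gene Fat1 by 1.34 ± 0.11 and 1.28 ± 0.11. Those lower were Pard3 in males (log2 −0.24) and Magi1 in females (−0.42), named after their values were seen. Several of the adaptors, such as Fyn, Iqgap1 and Tjp1, are also expressed by leukocytes, fibroblasts or tubules.

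Of 14 foot process skeleton and adhesion genes, 10 were higher in Alport males and 9 in Alport females, and Arhgap24 was lower in both (log2 −0.38 and −0.38). The formin gene Inf2 rose by log2 1.60 ± 0.16 and 1.10 ± 0.13, and Itga3, the laminin-binding integrin of the podocyte, by 1.15 ± 0.12 and 0.86 ± 0.070. Of 6 podocyte transcription factors, 4 were higher in each sex. Tcf21, which stromal cells of the kidney also express, rose by log2 1.63 ± 0.22 in males and 0.52 ± 0.18 in females, and in controls it was 0.90 ± 0.21 higher in females than in males (adjusted p = 0.00664). Of 13 other podocyte-enriched genes, 10 were higher and 3 lower in Alport males, and 7 higher and 1 lower in Alport females. Vegfa, the growth factor that podocytes and tubules make for the capillary, was lower in both sexes (log2 −0.60 and −0.66), and the others lower in males were Ildr2 (−0.30) and Enpep (−0.24), an aminopeptidase also found in proximal tubule. The genes given as lower in these lists were named after their values were seen. Lists of nephron and stromal cell types moved in the same comparisons.

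All 15 proximal tubule markers were lower in Alport males, where 24.2% of all genes were, and 14 of 15 in Alport females, where 21.8% were, the exception being Slc7a13, which was higher, with summed levels of 29220–32350 CPM in control and 10470–17670 CPM in Alport males and 24800–31570 and 10860–18690 CPM in the females. The TMM factors moved with the genotype too, at 0.828–0.862 in control and 1.06–1.22 in Alport males and 0.946–0.998 and 1.12–1.25 in the females, and their part in the differences of the podocyte genes was not tested. A higher factor lowers the CPM of a library, so without the factors Actn4 would lie relatively higher in Alport mice. Every fit used scaled counts, so Actn4 was not tested without scaling. Markers listed for the glomerular endothelium were higher for 8 of 9 genes in males and 5 of 9 in females (342–389 against 478–622 CPM summed in males and 420.1–516 against 518–597 CPM in females). Most of them, such as Pecam1 and Cdh5, are also expressed by endothelium outside the glomerulus, so they are called endothelial markers below. Mesangial markers were higher for 4 of 6 genes in males and 3 of 6 in females and lower for 1, Agtr1a, in both. The largest rises were those of Pdgfra and Pdgfrb, which interstitial fibroblasts also express. Parietal epithelial markers were higher for 4 of 5 and 3 of 5, and those of the thick limb and distal nephron lower for 6 of 10 and 5 of 10.

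Leukocyte markers were higher for 12 of 12 genes in males and 10 of 12 in females, with sums of 77.1–100 against 505–691 CPM in males and 91.7–171 against 401–722 CPM in females, and only Cd3e and Cd3g of the list were at 0 in any mouse. Fibroblast markers were higher for 10 of 10 and 9 of 10, with sums of 152–171 against 1139–1782 CPM in males and 184–281 against 956–1533 CPM in females. Between control females and males, proximal tubule sums overlapped, whereas markers of the endothelium (5 of 9), the mesangium (5 of 6), the thick limb and distal nephron (5 of 10) and fibroblasts (6 of 10) were higher in females, where 15.9% of all genes were, beside 2 of 5 parietal epithelial and 2 of 9 tested leukocyte markers. The part of these cell types in the Alport and sex differences was not tested.

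**Figure D3:**
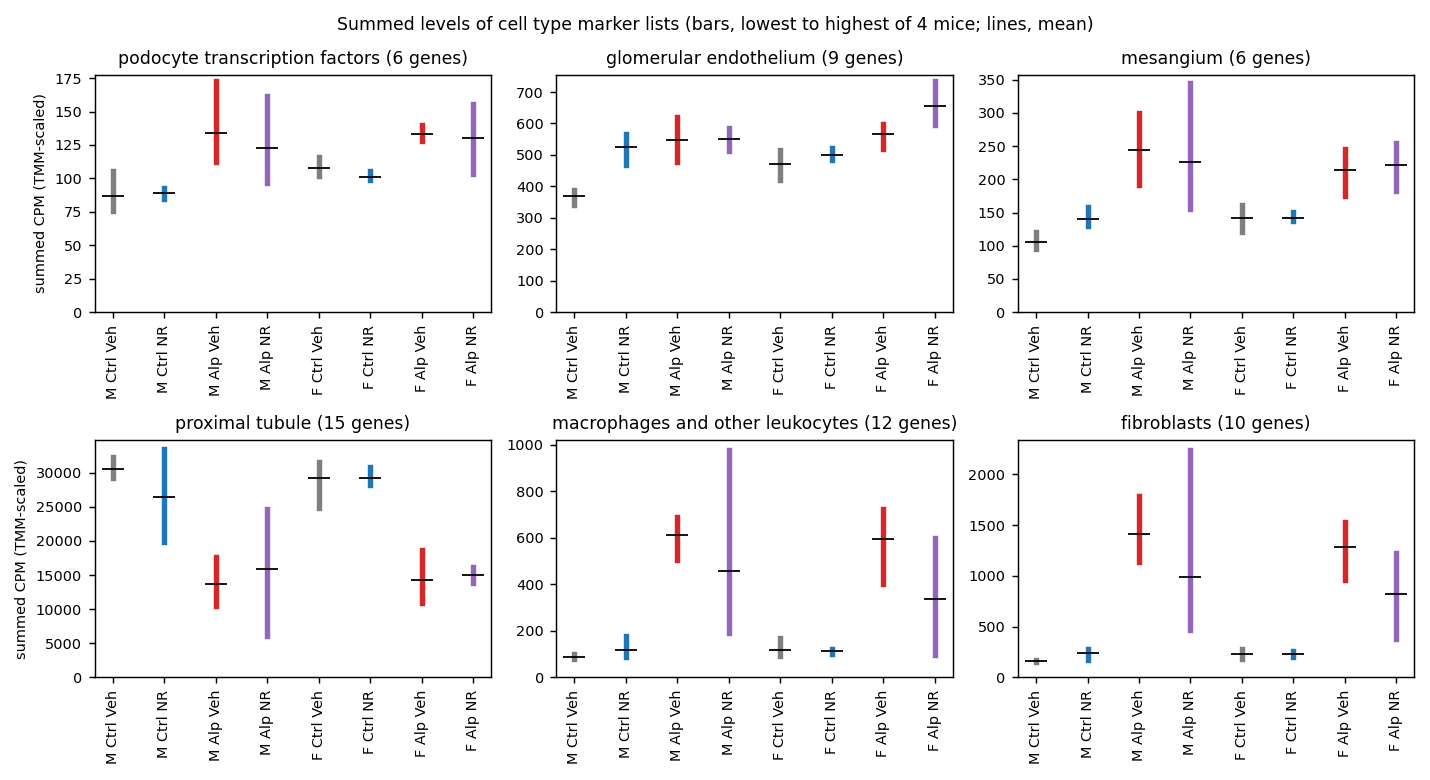
Summed TMM-scaled CPM (y axes, from 0) of 6 marker lists in the 8 groups; bars run from the lowest to the highest of 4 mice and lines mark the mean. In vehicle-treated Alport mice proximal tubule sums lie below, and fibroblast and leukocyte sums above, those of all vehicle-treated control mice, and male Alport mice on NR spread widely in all 3.

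NR-treated and vehicle-treated Alport mice were compared next. None of the 8 genes passed the test in males, where 0% of 15500 genes did, or in females, where 0.477% of 15712 genes did. Unadjusted p-values were under 0.05 for 1 gene in males (Actn4) and 2 in females (Actn4 and Podxl), and for 5.06% and 16.7% of all genes tested. These were also the genes whose groups did not overlap, which held for 3.42% and 9.18% of all genes. Actn4 was at 484, 488, 492 and 441 CPM in NR-treated Alport males, all above the vehicle-treated Alport males given above (log2 0.28 ± 0.12, adjusted p = 0.939). In females it was at 389.7, 378, 379 and 368 CPM on vehicle and 439, 481, 482 and 497 CPM on NR, again without overlap (log2 0.33 ± 0.087, adjusted p = 0.127). These levels rest on the TMM factors, which were 0.929–1.22 on NR and 1.06–1.22 on vehicle in Alport males. In Alport females the factors were 1.03–1.12 on NR and 1.12–1.25 on vehicle. Whether the Actn4 groups stay apart without the factors was not tested. By DESeq2, Actn4 passed on NR among Alport males (adjusted p = 0.00674), as it did among Alport females (adjusted p = 1.24e-04), and 1 fit of all 32 mice called it in females (adjusted p = 0.0234).

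Podxl was at 369, 432, 339.6 and 413 CPM in vehicle-treated and 459, 448, 435 and 502 CPM in NR-treated Alport females, without overlap (log2 0.26 ± 0.11, adjusted p = 0.284). In males it was at 338, 392, 393 and 357 CPM on NR, within the range on vehicle (log2 −0.060 ± 0.17). Nphs1 was at 60.9, 65.6, 45.6 and 61.4 CPM in NR-treated Alport males (log2 −0.33 ± 0.15, adjusted p = 0.939) and 83.6, 89.5, 71.3 and 87.3 CPM in NR-treated Alport females (log2 0.080 ± 0.11, adjusted p = 0.743). Neither difference passed the test. Synpo, Cdkn1c, Ptpro, Wt1 and Cd2ap had log2 differences of −0.26 to 0.12 in males and −0.15 to 0.34 in females, with SE up to 0.28.

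**Figure D4:**
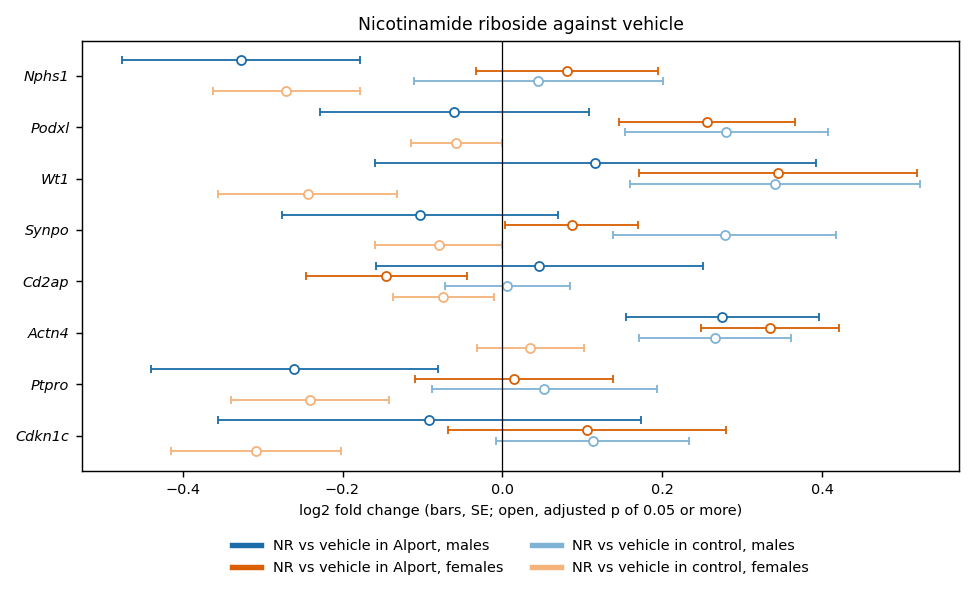
Log2 fold changes (x axis) of the 8 podocyte genes on NR against vehicle, with their SE, in Alport and control mice of each sex; open points have an adjusted p of at least 0.05. All 32 points are open, and Actn4 lies at 0.27–0.33 in every group but control females.

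NR-treated Alport males were the most widely spread of the groups for some genes. Cd2ap was at 168, 119.8, 224 and 122 CPM and Cdkn1c at 72.9, 134, 50.5 and 78.8 CPM in these 4 mice, and summed fibroblast markers were at 470–2236 CPM and leukocyte markers at 189–975 CPM. For comparison, Cd2ap was at 143, 145, 130 and 162 CPM in NR-treated Alport females.

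In control mice on NR none of the 8 genes passed the test, where 4.53% of 14696 genes in males and 6.18% of 14951 genes in females were called. Log2 differences were 0.0063 to 0.34 in the libraries labelled as males, all above 0, and −0.31 to 0.035 in females, with 7 of 8 below 0. Unadjusted p-values were under 0.05 for Actn4 in males (log2 0.27 ± 0.095, adjusted p = 0.129) and for Nphs1, Cdkn1c and Ptpro in females (log2 −0.27 ± 0.092, −0.31 ± 0.11 and −0.24 ± 0.10, adjusted p = 0.103, 0.108 and 0.172), as for 23.1% of all genes tested in males and 22.8% in females. Markers of other cell types moved in the same comparison of males, with 6 of 9 endothelial, 2 of 6 mesangial, 3 of 9 tested fibroblast and 2 of 9 tested leukocyte markers called higher on NR. Summed endothelial markers were at 342–389 CPM on vehicle and 467–567 CPM on NR in these males, without overlap. In females none of these 4 lists held a called gene. The part of these cell types in the podocyte genes was not tested. In females Nphs1 was at 53.9, 56.9, 40.2 and 47.8 CPM on NR and Cdkn1c at 49.1, 46.6, 41.5 and 34.1 CPM, each overlapping with vehicle. Without the 2 libraries labelled as NR-treated control males whose Col4a3 lay in the Alport range, 0 of 8 genes passed in males and log2 differences were −0.081 to 0.17, with Cd2ap and Cdkn1c below 0. The interaction of NR and genotype passed for none of the 8 in either sex, where 0% of 15800 genes in males and 0% of 16064 in females did, and unadjusted p-values were under 0.05 for 0 of the 8 genes in males and 4 in females, against 8.85% and 9.47% of all genes. Without the 2 libraries of low Col4a3 it also passed for 0 of 8 in males.

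NR-treated Alport mice still differed from vehicle-treated control mice. In males 7 of 8 genes were higher, with Cd2ap not called (log2 0.47 ± 0.19, adjusted p = 0.107), where 14.4% of 15077 genes were. In females 7 of 8 were higher, with Wt1 not called (log2 0.50 ± 0.18, adjusted p = 0.0655), where 11.9% of 15381 genes were. Nphs1 was higher by log2 0.90 ± 0.16 in males and 0.48 ± 0.088 in females and Cdkn1c by 1.34 ± 0.26 and 0.92 ± 0.15. These comparisons share their control mice with those on vehicle. Of the other lists, 7 of 9 endothelial markers were higher in each sex, 7 of 9 tested fibroblast markers in males and 7 of 10 in females, and 7 of 10 tested leukocyte markers in males and 6 of 12 in females, and proximal tubule markers were lower for 5 of 15 and 12 of 15, their part not being tested. Actn4, which was not called between vehicle-treated groups, was called here in both sexes (log2 0.44 ± 0.13 and 0.30 ± 0.078, adjusted p = 0.0400 and 0.0200), and in males that call was lost on leaving out any mouse but NR-treated Alport replicate 4 (adjusted p = 0.0545–0.125). The Cd2ap call in females (adjusted p = 0.0350) was lost without any of the 4 controls or without NR-treated Alport replicate 1 or 2 (adjusted p = 0.0522–0.103), and the Actn4 call in females without control replicate 1 or 2 (adjusted p = 0.0682 and 0.0752).

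Among NR-treated mice, all 8 genes were higher in Alport than in control females and none overlapped, where 14.4% of 15109 genes were called higher and 13% lay wholly above the controls. Log2 differences ran from 0.29 for Actn4 (adjusted p = 0.0257) to 1.25 for Cdkn1c (adjusted p = 7.84e-04), with a median of 0.77, against 0.018 for all genes tested. In the same comparison 8 of 9 tested fibroblast, 9 of 12 leukocyte, 4 of 9 endothelial and 3 of 6 mesangial markers were higher and 14 of 15 proximal tubule markers lower. Summed fibroblast markers were at 205–256 CPM in control and 377–1230 CPM in Alport females on NR, and the part of these cell types was not tested. The Actn4 call was lost without control replicate 1, 3 or 4 or Alport replicate 2 (adjusted p = 0.0524–0.0775). Wt1, not called on vehicle, was at 13.8, 14.5, 12.3 and 12.3 CPM in control and 19.5, 21.5, 16.7 and 29.9 CPM in Alport females on NR (log2 0.77 ± 0.17, adjusted p = 0.00766). In the libraries labelled as NR-treated males none of the 8 passed by edgeR, where 0% of 14884 genes did, 5 genes lay wholly above the controls, as did 7.57% of all genes, 6 had an unadjusted p under 0.05, as did 21.6% of all genes, and the median log2 difference was 0.87, against 0.0076 for all genes. Ptpro was at 14.4, 15.3, 18.4 and 22.7 CPM in control and 41.8, 37.6, 31.4 and 36.2 CPM in Alport males (log2 1.08 ± 0.16, adjusted p = 0.0735), and Nphs1 at 30.4, 26.8, 37.2 and 39.3 and 60.9, 65.6, 45.6 and 61.4 CPM (log2 0.84 ± 0.16, adjusted p = 0.0735). DESeq2 called 6 genes and 1 fit of all 32 mice 7 genes, all higher in Alport mice. The shares of all genes that these fits called are not given here, so their counts stand without a background. Without the 2 control libraries whose Col4a3 lay in the Alport range, edgeR called 0 of 8 and the median log2 difference was 0.92.

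To compare the genes with each other within a mouse, the log2 CPM of Nphs1 was subtracted from that of each other gene. In males on vehicle, Actn4 relative to Nphs1 was lower in Alport than in control mice by 1.07 on the log2 scale and Cd2ap by 0.81, whereas Podxl, Wt1, Synpo, Ptpro and Cdkn1c differed by −0.29 to 0.19. In females Actn4 differed by −0.42, Synpo by 0.43, Cdkn1c by 0.41 and Ptpro by 0.31, and Cd2ap by 0.04. The smallest p of an exact two-sided permutation test of 4 against 4 mice is 0.0286, which Actn4 reached in both sexes, Cd2ap in males and Ptpro and Cdkn1c in females. After adjustment over the 14 tests the smallest p was 0.0800, so that none passed. With 4 against 4 mice, a test could pass only if most of the 14 reached the smallest possible p. The adjusted result therefore does not show that the genes moved equally.

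Across the 32 mice, with group means removed, the genes most like each of the 8 were found by Pearson's r of log2 CPM among 14920 genes. Nphs1 and Ptpro were among each other's nearest genes (r = 0.78), Nphs1 being the nearest of all to Ptpro and Ptpro second to Mrgprf (0.79) for Nphs1. Plce1, a slit diaphragm phospholipase gene, was among the 5 nearest to Ptpro (0.72). Cdkn1c was nearest to Slc9a3r2 (0.85), which encodes a scaffold that binds podocalyxin, and Wt1 to Srgap1 (0.82). Synpo was nearest to Stom (0.81), and the kinase gene Fyn was among its 5 nearest (0.78). Besides Ptpro, Nphs1, Plce1, Slc9a3r2 and Fyn, none of the 5 genes nearest to Nphs1, Ptpro, Cdkn1c or Synpo was a podocyte gene of the lists. Those outside the lists included Myom2 for Nphs1 (0.76), Olfml2a for Ptpro (0.74), Nudt14 for Cdkn1c (0.80) and Thbs3 for Synpo (0.80).

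Podxl was nearest to Shisa3 (0.79), which was also among the 5 genes nearest to Ptpro (0.70). Cd2ap was nearest to Nras and Ppfibp1 (0.91 each) and Actn4 to Tbc1d17 (0.81). For Podxl, Wt1, Cd2ap and Actn4, none of the 5 nearest genes was a podocyte gene of the lists. Over the 15 pairs of the 6 genes without Cd2ap and Actn4, r was −0.11 to 0.78 with a median of 0.42, and over the 13 pairs with either of them it was −0.55 to 0.61 with a median of 0.15, a split chosen after the values were seen. The 2 sets overlap in their values. Mice share scaling and cell makeup across genes, and these correlations are descriptive.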

How the data were processed

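RNA of kidney cortex from 32 mice was measured by poly(A) RNA-Seq with 1 library per mouse. The authors processed the reads with BioJupies and deposited raw counts per gene symbol, from which they also derived the deposited log10(CPM + 1) values (largest difference 8.88e-16), which served only as a check. The submitters' processing notes name mm10, while the aligner, annotation and strand setting are not given in the sources used here. Total counts were 16621944–27778797, and 7938 of 32544 genes had 0 counts in every mouse. Within groups, sampling noise was exceeded in all 48 pairs of mice (chi-square per degree of freedom at least 7.56).

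The quasi-likelihood F test of edgeR 4.0.16 (R 4.3.3) was fitted across genes separately for each comparison. Low counts were removed by filterByExpr (minimum count 10) and libraries scaled by TMM. Benjamini-Hochberg adjustment ran over all genes tested, with a threshold of 0.05. Levels are TMM-scaled CPM over all 32 libraries, means are given with the SD and log2 fold changes with the SE. Within-mouse differences used log2 CPM with a prior count of 2 and exact permutation tests (SciPy 1.17.1). DESeq2 1.42.0, limma-voom (limma 3.58.1), RLE size factors, 1 fit of all 32 mice, omitting the filter, demanding at least 10 counts per mouse, a replicate block and leaving out each mouse were tried as alternatives. The test was checked on simulated data. The 8 genes and the marker lists were chosen with earlier results of these data known. All 8 genes are named in each comparison, and of other lists at most the 3 genes with the smallest adjusted p in vehicle-treated males, beside genes said to be chosen after their values were seen. Exon lengths come from GENCODE and promoters from RefSeq.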

Additional observations from a re-analysis of the deposited data

Results flagged for a closer look

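In 4 of 64 groups of 4 mice, 1 mouse stood apart from the other 3 by Dixon's criterion, where chance gives about 1 in 20. Synpo was highest in NR-treated Alport male replicate 1, at 170.5 CPM against 115–121 CPM in the other 3. Actn4 was lowest in NR-treated Alport male replicate 4, at 441.3 CPM, with 484, 488, 492 and 441 CPM in replicates 1 to 4. Cd2ap was lowest in vehicle-treated control female replicate 4, at 106.8 CPM, against 121–124 CPM in the others. Ptpro was lowest in vehicle-treated Alport female replicate 3, at 36.8 CPM, against 45.2–47.0 CPM in the others.

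The estimated Alport difference of Nphs1 was smaller in females than in males, with an interaction of −0.83 ± 0.18 on the log2 scale (edgeR, adjusted p = 0.0488). This call was lost with limma-voom, RLE size factors, the fit of all 32 mice and the replicate block (adjusted p = 0.0590, 0.0699, 0.331 and 0.0809). It was also lost when most single mice were left out.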

How the results depend on the processing

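The 7 calls in vehicle-treated Alport males, the 6 in females and the 6 between control females and males kept their number for every mouse left out, and ranges over leaving out a mouse were 6–7 (males) and 5–8 (females) for NR-treated Alport against vehicle-treated control mice and 7–8 for NR-treated females. The number of the 8 genes called by NR in Alport mice went from 0 to 1 with DESeq2 in each sex and with 1 fit of all 32 mice in females. In control males it went from 0 to 1 with the fit of all 32 mice, and over leaving out a mouse it was 0–1, with Actn4 called without NR-treated control replicate 4 (adjusted p = 0.0436). Between NR-treated Alport and control males it went from 0 to 6 with DESeq2, 7 with the fit of all 32 mice and 3 with no low-count filter, and was 0–1 over leaving out a mouse, with Ptpro called without Alport replicate 1 (adjusted p = 0.0473). The sex-genotype interaction went from 1 to 3 with DESeq2 and to 0 with limma-voom, the fit of all 32 mice and RLE size factors, and was 0–1 over leaving out a mouse: without male Alport replicate 4 the call was Wt1 (adjusted p = 0.0324) and without female Alport replicate 2 it was Nphs1 (0.042). The shares of all genes called under the alternatives of this section are not given here. The cause of these changes was not tested.

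Correlations between same-numbered mice ran from −0.167 to 0.261 over 48 pairs, with 9 over 0.1. The sample labels do not name litters, so pairing by litter could not be tested. With the replicate number as a block, 7 genes were called in vehicle-treated Alport males and 6 in females, 6 and 5 in NR-treated Alport against vehicle-treated control males and females, 2 (Synpo and Ptpro) and 7 between NR-treated Alport and control males and females, 6 between control females and males, and 0 in the NR comparisons and the sex-genotype interaction, where Nphs1 had an adjusted p of 0.0809.

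Small differences that were not called changed sign. These were Cd2ap on NR in Alport males with limma-voom (−0.019) and in control males with the fit of all 32 mice (−0.0019), Actn4 between Alport and control females with that fit (−0.031), Ptpro between Alport females and males with limma-voom (0.017) and the block (0.020), and Cd2ap (−0.067) and Cdkn1c (−0.081) on NR in control males without the 2 libraries of low Col4a3. Over leaving out a mouse, log2 differences crossed 0 for Actn4 between Alport and control females (−0.019 to 0.029), for the interaction of Cd2ap (−0.046 to 0.050), and on NR in Alport males for Cd2ap (−0.17 to 0.16), Cdkn1c (−0.41 to 0.091), Podxl (−0.15 to 0.079) and Wt1 (−0.11 to 0.30). They also did on NR in Alport females for Ptpro (−0.062 to 0.11), on NR in control males for Cd2ap (−0.047 to 0.048), Nphs1 (−0.034 to 0.14) and Ptpro (−0.080 to 0.14), and between Alport females and males for Cdkn1c (−0.041 to 0.16), Podxl (−0.073 to 0.16), Ptpro (−0.12 to 0.18), Synpo (−0.040 to 0.15) and Wt1 (−0.27 to 0.053). Each of the 8 genes had at least 149 counts in each mouse, and the effect of depth was not tested.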
